A study of Homo sapiens with 18 samples.

Results

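The 38 genes described here are interferon-stimulated genes and genes of the MHC class I antigen presentation pathway, taken by name from the 23106 genes with a row in the count files. All 38 had a row. They were chosen as a functional group and not by their counts.

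Type I and type III interferons bind their receptors and act through JAK kinases on STAT proteins, which join IRF9 to form a complex that binds the interferon-stimulated response element in the promoters of its targets. The targets include RNA sensors, the IFIT, OAS and IFITM families of antiviral effectors and the genes that load peptides on MHC class I molecules, and many of them keep a low basal expression in unstimulated epithelial cells. MHC class I molecules pair a heavy chain of the HLA family with beta-2 microglobulin (B2M), and the TAP1 and TAP2 transporter brings the peptides to them with the help of tapasin (TAPBP).

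PolyA RNA was sequenced from HKC-8, a human kidney proximal tubule line, from RCC4, a kidney cancer line stably transfected with wild-type VHL (RCC4+VHL), and from HepG2, a liver cancer line, each in normoxia and hypoxia with 3 samples per condition, 18 in all. No group received interferon, by the labels. Hypoxia was 16 h at 0.5% oxygen in HKC-8 and HepG2 and 24 h at 1% oxygen in RCC4+VHL according to the sample annotation, although hypoxic HKC-8 is titled with 0.1% and normoxic HKC-8 with 21%. The published description names RCC4 and not RCC4+VHL, and gives it the same oxygen level and duration as the other lines. Both points conflict with the annotation used here. Each line stands for 1 cell line, and nothing in the labels says that the replicates were separate cultures, so the p-values measure the spread between these samples, which may be technical.

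Total counts were 75441764 to 97984260 per sample in HKC-8, 42045335 to 51794355 in RCC4+VHL and 40915980 to 48355303 in HepG2, so that 3 counts were worth between 0.0307 and 0.0776 CPM, the counts of a gene scaled to the size of its library. Levels are given as CPM with scaling factors computed over all 18 samples. All tested genes of a list of hypoxia-induced genes rose, 10 in HKC-8, 8 in RCC4+VHL and 10 in HepG2. All 10 hepatocyte markers were detected in every HepG2 sample, with a summed level of 36861 to 38536 CPM in normoxia. The same list summed to 0.275 to 0.394 CPM in normoxic HKC-8, with 1 marker detected in every sample, and to 9.97 to 11.2 CPM in RCC4+VHL, with 2 detected and SERPINA1 at 10.1. The 12 proximal tubule and renal epithelial markers summed to 161 to 202 CPM in normoxic HKC-8, 954 to 992 in RCC4+VHL and 306 to 321 in HepG2. Detected in every sample were 5, 10 and 6 of them, so the list did not set HKC-8 apart from HepG2. PAX8, a renal lineage factor, was at 165 and 132 CPM in normoxic HKC-8 and RCC4+VHL. Several markers of differentiated proximal tubule were at or near 0, among them SLC22A6 in every normoxic sample and LRP2 in normoxic HKC-8. The 8 blood and immune markers with a row summed to 32.2 to 39.7 CPM in normoxic HKC-8, 168 to 191 in RCC4+VHL and 89.5 to 109 in HepG2, with 2, 2 and 3 detected in every sample. CD74, the MHC class II invariant chain, made up most of this, at 34.1, 179 and 99.5 CPM. Of the leukocyte markers, CD3E was at 0 in all 3 normoxic lines and PTPRC at 0 in normoxic RCC4+VHL and HepG2 and 0.0162 CPM in normoxic HKC-8.

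The interferon ligands were near absent from all libraries. Of 13 ligand genes with a row, 10 had no count in any sample, IFNB1 and IFNG among them, and the largest count of any ligand in a sample was 10, for IFNE. None passed the filter on low counts in any line.

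Promoter sequences are shown because the members were not chosen by them. RefSeq windows (GRCh38.p14, from 250 bases before to 50 after the start of the gene) were matched for 31 of the 38 members, DDX58 under its current symbol RIGI. The core of the interferon-stimulated response element, GAAA, any 2 bases and GAAA, was searched on either strand and found in 23 of the 31 windows (74.19%), against 4.376% of 27305 gene windows of the same length. TTCNNNGAA, the core of the gamma-activated site, was in 10 (32.26%) against 9.376%. Of the cores of the hypoxia response element, ACGTG was in 5 (16.13%) against 24.87% and GCGTG in 10 (32.26%) against 40.57%. These matches describe letters and show no binding. The motifs can overlap each other. The stretches below belong to members that the results turn on and are written 5′ to 3′ on the strand of the gene. Capitals mark the interferon-stimulated response element core, and in ISG20 alone also ACGTG. On the opposite strand the core reads as TTTC, any 2 bases and TTTC, and the CACGTG in ISG20 holds ACGTG. ISG20 was not alone in holding a hypoxia response element core. The window of ISG15 also held ACGTG, and those of ISG15, IFIT3, TAP1 and B2M held GCGTG, matches that are not shown.
IFIT3 (chr10:89327829-89327896, plus strand): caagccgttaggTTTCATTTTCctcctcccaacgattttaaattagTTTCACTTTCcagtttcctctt
ISG15 (chr1:1013372-1013411, plus strand): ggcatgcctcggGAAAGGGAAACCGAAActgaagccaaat
IFI44 (chr1:78649759-78649788, plus strand): gggcacactgagTTTCAGTTTCctttctct
PARP9 (chr3:122564320-122564353, minus strand): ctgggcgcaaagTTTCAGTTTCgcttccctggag
TAP1 (chr6:32853811-32853850, minus strand): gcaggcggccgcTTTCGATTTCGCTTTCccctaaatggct
B2M (chr15:44711361-44711400, plus strand): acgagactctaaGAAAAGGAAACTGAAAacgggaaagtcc
ISG20 (chr15:88638890-88638968, plus strand): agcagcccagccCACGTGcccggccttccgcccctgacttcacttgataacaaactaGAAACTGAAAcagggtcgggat

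One feature of the count files bears on 7 members. HLA-B, HLA-C, HLA-E, HLA-F, TAP1, TAP2 and TAPBP lie on chromosome 6 between positions 29690552 and 33282061 (GRCh37). Of 50 protein-coding genes of this stretch that reached 5 CPM in normoxic HepG2, 12 (24%) did so in normoxic HKC-8 and 5 (10%) in RCC4+VHL, against 88.5% and 88.6% of 9296 genes elsewhere. CLIC1, NELFE and PPP1R10, chosen after their values were seen, had 0 counts in every HKC-8 and RCC4+VHL sample and 9816 to 10898, 1418 to 2086 and 810 to 1066 counts in HepG2. The cause was not tested. The levels of these 7 members were therefore not comparable between lines, and in HKC-8 and RCC4+VHL they describe the counts in the files. The HLA genes are also close to each other in sequence, and the authors discarded fragments without a unique alignment, so their counts are uncertain for that reason too. B2M lies on chromosome 15 (45003556 to 45011049, GRCh37) and is outside the stretch.

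Normoxic levels differed between the lines for most members, as they did for most genes. Sequencing lanes went with the line and HKC-8 was sequenced deeper, so line and sequencing could not be told apart. Of the 31 members outside the chromosome 6 stretch, RCC4+VHL had the highest normoxic mean for 18, HepG2 for 7 and HKC-8 for 6, where RCC4+VHL was highest for 32.2%, HepG2 for 34.7% and HKC-8 for 33.1% of 14806 genes. All 38 members were tested. Against HKC-8, RCC4+VHL was higher for 18 and lower for 11, where 80.8% of 14806 genes were called in either direction (39.4% higher, 41.4% lower). HepG2 was higher than HKC-8 for 19 and lower for 18, with 83.0% of genes called (42.6% higher, 40.5% lower). HepG2 was higher than RCC4+VHL for 13 and lower for 20, with 83.3% called (45.3% higher, 38.1% lower) and a median log2 difference over all genes of 0.11. Outside the chromosome 6 stretch the counts were 17 and 8, 14 and 16, and 8 and 18.

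**Figure D1:**
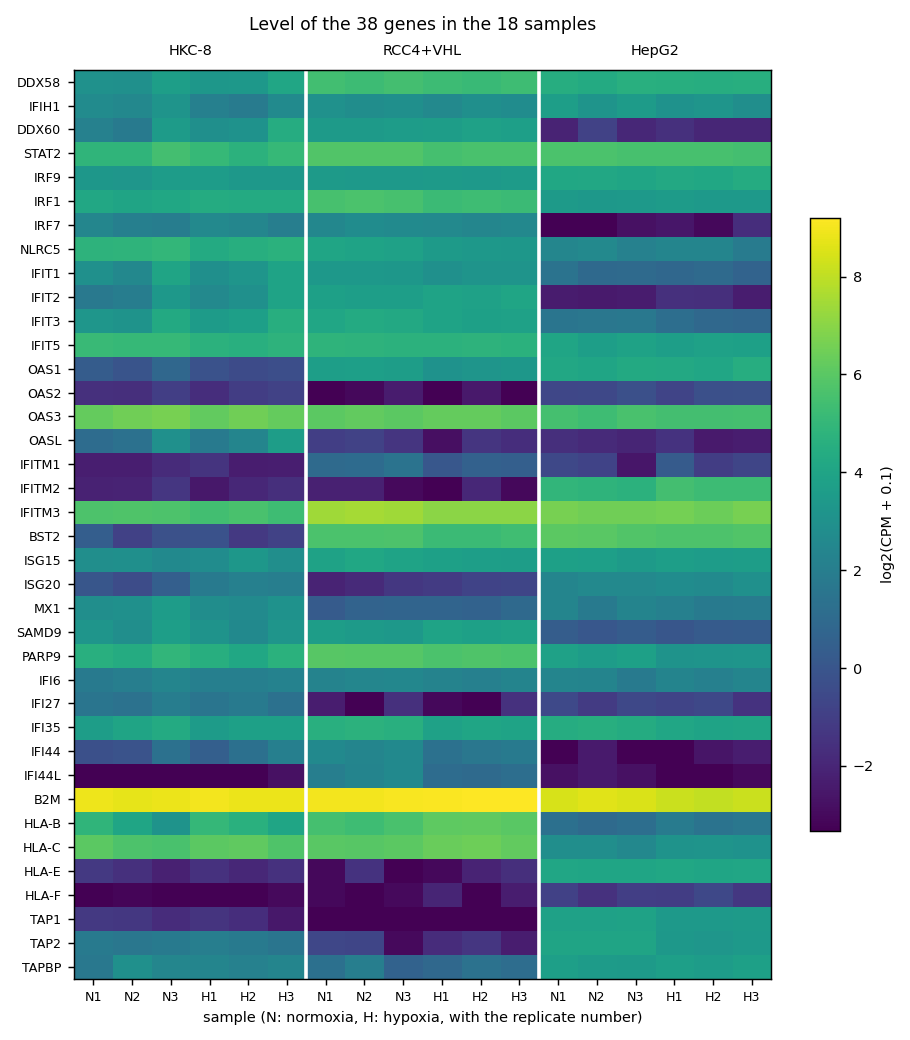
Level of each of the 38 genes (rows, grouped by role) in each of the 18 samples (columns), as log2 of CPM plus 0.1 in colour. B2M is the brightest row in every sample, and IFI44, IFIT2 and DDX60 are dark in the HepG2 columns. The chromosome 6 genes HLA-E and TAP1 are dark in the HKC-8 and RCC4+VHL columns, and HLA-F is low in all columns.

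Per kilobase of transcript, B2M was the most abundant member in every group, and IFITM3, a membrane protein that blocks virus entry, was second. In normoxia B2M was at 478 ± 28.5 CPM per kilobase in HKC-8, 546 ± 24.0 in RCC4+VHL and 389 ± 25.1 in HepG2 (SD, n = 3). IFITM3 followed at 85.5 ± 1.68, 288 ± 8.66 and 153 ± 9.85 CPM per kilobase.

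HepG2 lacked a group of members that both kidney lines expressed. IRF7, the factor that amplifies the interferon response, had 2 counts in all in normoxic HepG2 and was 291-fold higher in HKC-8 (95% exact counting interval 80.5 to 2409) and 401-fold higher in RCC4+VHL (111 to 3317), intervals that cover counting error only. IFIT2, which binds viral RNA, was at 0.0906, 0.0895 and 0.0955 CPM in normoxic HepG2, 3.30, 3.83 and 10.1 in HKC-8 and 13.9, 12.8 and 13.0 in RCC4+VHL. Its log2 difference was -5.92 against HKC-8 (SE 0.56, edgeR adjusted p = 2.5e-07) and -7.13 against RCC4+VHL (SE 0.54, edgeR adjusted p = 2.23e-08). Without normoxic HKC-8 replicate 3 the first was -5.28. IFI44 had 0, 4 and 0 counts in normoxic HepG2 and was lower by a log2 difference of -5.34 and -7.45 against the same lines, estimates that rested on 1 library and became -9.36 and -11.45 without HepG2 replicate 2. Against HKC-8 it was -4.59 without HKC-8 replicate 3. DDX60, a helicase linked to RNA sensing, had 6, 20 and 7 counts in normoxic HepG2 and was lower by -4.67 and -5.48. These became -5.46 and -6.27 without HepG2 replicate 2, and the first was -3.98 without HKC-8 replicate 3.

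Other members were near absent from HKC-8 or from RCC4+VHL, and some of these were low in HepG2 as well. IFI44L had 0 counts in normoxic HKC-8 and 4.05, 4.87 and 6.11 CPM in RCC4+VHL, at least 135-fold higher against a limit of 3 counts per library. In normoxic HepG2 it had 2, 4 and 2 counts. BST2 (tetherin), which holds budding virus at the cell surface, was at 1.24, 0.431 and 0.770 CPM in normoxic HKC-8, 50.6, 50.8 and 51.5 in RCC4+VHL and 67.2, 64.5 and 55.7 in HepG2. The log2 difference from HKC-8 was 5.98 in RCC4+VHL (SE 0.21, edgeR adjusted p = 9.26e-12) and 6.28 in HepG2 (SE 0.21, edgeR adjusted p = 4e-12). OAS1, which makes the activator of RNase L, was higher in RCC4+VHL than in HKC-8 (log2 difference 3.37, SE 0.19), as was IFITM1 (3.99, SE 0.47). OASL (-3.39, SE 0.49) and IFI27 (-4.84, SE 0.49) were lower. OASL was at -2.56 without HKC-8 replicate 3. Its normoxic mean was 0.378 CPM in RCC4+VHL and lower still in HepG2, at 0.183. IFI27, with 5, 0 and 10 counts in normoxic RCC4+VHL, was at -4.23 without RCC4+VHL replicate 2 and -5.90 without replicate 3. IFITM2 was at 28.1 ± 1.99 CPM in normoxic HepG2 and at 0.188 ± 0.0943 and 0.0870 ± 0.0551 in HKC-8 and RCC4+VHL (SD, n = 3).

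The differences among the chromosome 6 members carry the limit given above. HLA-B was at 2.17 CPM in normoxic HepG2, below 18.1 in HKC-8 and 44.7 in RCC4+VHL. HLA-C was at 6.67 CPM in normoxic HepG2, below 55.9 in HKC-8 and 63.5 in RCC4+VHL. The rest of these members were highest in HepG2. TAP1 had 0 counts in all 6 RCC4+VHL samples. In normoxia it was at least 208-fold higher in HepG2 and at least 3.94-fold higher in HKC-8 against the limit of 3 counts per library. HLA-E was higher in HepG2 by a log2 difference of 6.22 against HKC-8 and 7.40 against RCC4+VHL. HLA-E had 1, 13 and 0 counts in normoxic RCC4+VHL, and the second difference was 10.35 without RCC4+VHL replicate 2. TAP2 was lower in RCC4+VHL than in HKC-8 (-3.12), and HLA-F had 1 count in all in normoxic HKC-8 and was 91.9-fold higher in HepG2 (95% exact counting interval 15.7 to 3705).

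In hypoxic RCC4+VHL most called interferon-stimulated genes fell, and HLA-B, HLA-C and B2M rose. Of 38 members, 32 passed the filter on low counts, 14 fell and 7 rose, where 50.1% of 12811 genes were called (24.2% lower, 25.9% higher). The members had a median log2 fold change of -0.22, against -0.0018 over all genes tested. In 1 fit of all 18 samples 6 members fell and 2 rose, 8 of the 21 calls. IFI44 (edgeR adjusted p = 0.101), IFITM1 (0.138), HLA-B (0.136), B2M (0.0581), BST2, IFIT1, IFIT2, IFIT3, ISG15, DDX60, PARP9, SAMD9 and STAT2 lost their calls there. OAS2, IFITM2, IFI27, HLA-E, HLA-F and TAP1 were too low to test. In 15 of the 32 members all hypoxic samples lay below all normoxic samples, and in 7 they lay above, where 28.3% and 28.2% of all genes did so.

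**Figure D2:**
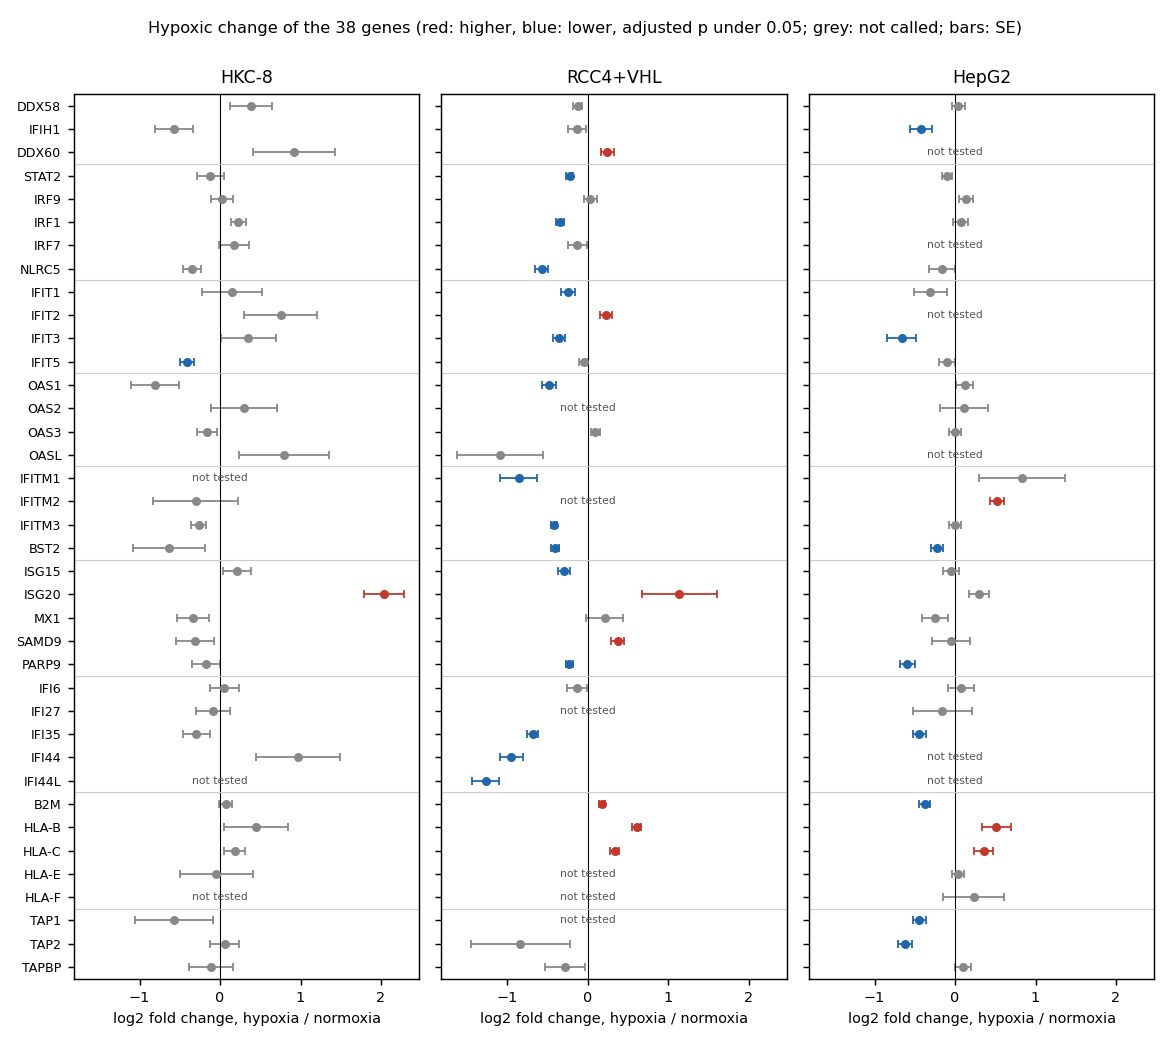
Log2 fold change of each member in hypoxia against normoxia (x axis) with its standard error, in HKC-8, RCC4+VHL and HepG2, grouped by role with grey lines between groups. The RCC4+VHL panel has 14 lower (blue) and 7 higher (red) members, the HepG2 panel 8 and 3, and the HKC-8 panel 1 and 1 with wide bars.

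Among the IFI genes, IFI44L, IFI44 and IFI35 fell in RCC4+VHL. IFI44L (chromosome 1, 79085587 to 79111830, GRCh37) went from 4.05, 4.87 and 6.11 CPM in normoxia to 2.08, 1.88 and 2.24 in hypoxia, a log2 fold change of -1.27 (SE 0.16, edgeR adjusted p = 9.37e-07). Its neighbour IFI44 (79115481 to 79129763) went from 6.04, 5.18 and 5.97 to 2.41, 3.06 and 3.39 CPM, a log2 fold change of -0.95 (SE 0.14, edgeR adjusted p = 6.18e-06). Neither gene had overlapping samples. IFI35, a partner of NMI in interferon-induced complexes, went from 23.9, 26.1 and 23.5 to 14.2, 16.3 and 15.1 CPM (log2 fold change -0.68, SE 0.07, edgeR adjusted p = 1.84e-08). IFI6 was not called.

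Of the IFITM genes and tetherin, the 3 that could be tested had lower RNA levels. IFITM1 went from 1.90, 2.01 and 2.67 CPM to 0.948, 1.36 and 1.28 (log2 fold change -0.86, SE 0.23, edgeR adjusted p = 0.00289). The abundant IFITM3 (chromosome 11, 319676 to 329475, GRCh37) was at 176 ± 5.29 CPM in normoxia and 132 ± 0.245 in hypoxia (SD, n = 3), a log2 fold change of -0.41. BST2 fell by 0.40 on the log2 scale. All 3 tested genes of this group were called and had no overlap between conditions. Of all genes, 24.2% were called lower and 28.3% had all hypoxic samples below all normoxic samples.

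Among transcriptional regulators, NLRC5, the coactivator of MHC class I genes, went from 16.6, 15.2 and 14.2 CPM to 11.1, 10.1 and 9.71 (log2 fold change -0.57, SE 0.08, edgeR adjusted p = 4.15e-06). IRF1 fell by 0.34 and STAT2 by 0.22 on the log2 scale, while IRF9 and IRF7 were not called. Of the antiviral families, OAS1 (-0.48), IFIT3 (-0.36), ISG15 (-0.29), IFIT1 (-0.24) and PARP9 (-0.23) had lower log2 levels in hypoxia. ISG15 is a ubiquitin-like modifier, and PARP9 works with DTX3L in ADP-ribosylation. IFIT2 (0.23), the helicase DDX60 (0.25) and SAMD9 (0.38), which restricts poxviruses, had higher ones. The IFIT family was thus split, with IFIT5 not called. Calls were lost when single samples were left out, for IFIT1 without normoxic replicate 1 or 2 or hypoxic replicate 1, for IFIT2 without normoxic replicate 2 or hypoxic replicate 3, and for DDX60 without replicate 2 of either condition.

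All 3 MHC class I chains that could be tested, of 5 in the set, rose in RCC4+VHL. HLA-B went from 45.4, 39.9 and 48.8 CPM to 68.9, 69.7 and 64.7, a log2 fold change of 0.61 (SE 0.06, edgeR adjusted p = 7.25e-09). HLA-C rose by a log2 fold change of 0.34 and B2M by 0.18, B2M from 515 ± 22.6 to 582 ± 13.4 CPM (SD, n = 3). None of these 3 genes had overlapping samples. Of all genes, 25.9% were called higher and 28.2% had all hypoxic samples above all normoxic samples. The chromosome 6 limit applies to HLA-B and HLA-C but not to B2M. In peptide loading, TAP2 and TAPBP were not called. ISG20, an exonuclease, went from 0.138, 0.179 and 0.304 CPM to 0.350, 0.480 and 0.517 (log2 fold change 1.14, SE 0.46, edgeR adjusted p = 0.0437), a call that was lost with DESeq2 (adjusted p = 0.0721) and without the filter on low counts (edgeR adjusted p = 0.0791), and also without any of 4 of the 6 samples in turn.

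**Figure D3:**
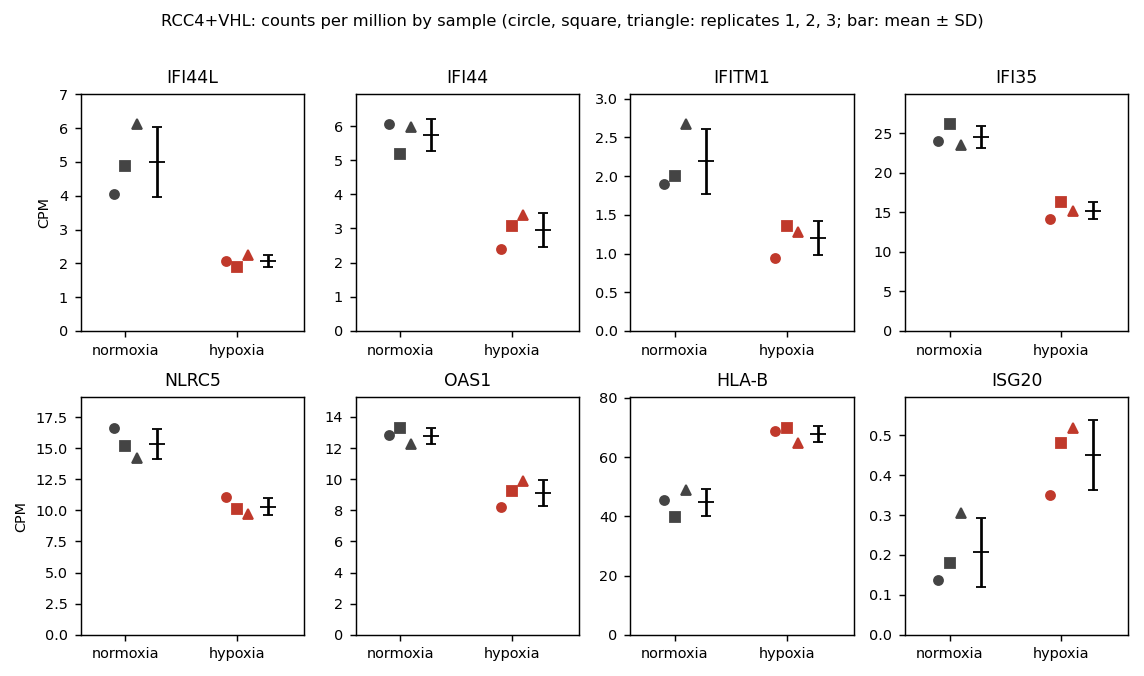
CPM in the 3 normoxic and 3 hypoxic RCC4+VHL samples (points) with the mean and SD (bars), each axis starting at 0, for the members changed at least 1.5-fold and for NLRC5 and OAS1. IFI44L, IFI44, IFITM1, IFI35, NLRC5 and OAS1 are lower in every hypoxic sample, and HLA-B and ISG20 are higher in every hypoxic sample.

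In hypoxic HepG2 the peptide transporter genes TAP1 and TAP2, B2M and 5 interferon-stimulated genes fell, and HLA-B, HLA-C and IFITM2 rose. Of 32 members tested, 8 fell and 3 rose, where 39.1% of 13623 genes were called (19.2% lower, 19.9% higher), and the median log2 fold change was -0.02 against -0.0044 over all genes. DDX60, IRF7, IFIT2, OASL, IFI44 and IFI44L were too low to test. The hypoxic samples were all below the normoxic samples for 7 members and all above for 4, against 25.0% and 24.6% of all genes.

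TAP2 (chromosome 6, 32789610 to 32806516, GRCh37) went from 15.6, 15.7 and 16.0 CPM to 10.2, 9.64 and 10.9, a log2 fold change of -0.62 (SE 0.09, edgeR adjusted p = 0.000116). Its partner TAP1 was at 14.6 ± 0.320 CPM in normoxia and 10.8 ± 0.308 in hypoxia (SD, n = 3), a log2 fold change of -0.44. B2M was at 348, 393 and 359 CPM in normoxia and 290, 264 and 293 in hypoxia (log2 fold change -0.38, SE 0.07, edgeR adjusted p = 0.000783). The samples of these 3 genes did not overlap, where 25.0% of all genes had all hypoxic samples below all normoxic samples. In 1 fit of all 18 samples, TAP2 (edgeR adjusted p = 0.0523), TAP1 (0.0847), IFIT3 (0.131), HLA-B, IFIH1 and BST2 lost their calls. HLA-B (0.51, from 2.17 ± 0.243 to 3.09 ± 0.536 CPM) and HLA-C (0.36, from 6.67 ± 0.907 to 8.56 ± 0.207 CPM) rose on the log2 scale (SD, n = 3). The HLA-B call was lost without any of 5 of the 6 samples in turn and the HLA-C call without any of 4. HLA-E, HLA-F and TAPBP were not called.

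IFIT3 went from 2.83, 3.07 and 3.10 CPM to 2.24, 1.80 and 1.63 in HepG2 (log2 fold change -0.67, SE 0.18, edgeR adjusted p = 0.00917). PARP9 went from 14.1, 12.1 and 14.0 to 8.69, 8.71 and 9.26 CPM (log2 fold change -0.59, SE 0.10, edgeR adjusted p = 0.000336). Both were lower in every hypoxic sample. IFI35 (-0.44), IFIH1 (-0.43) and BST2 (-0.23) also had lower log2 levels. IFIH1, the MDA5 sensor of long double-stranded RNA, was called although its samples overlapped, at 8.75 to 12.9 CPM in normoxia and 7.27 to 9.05 in hypoxia. IFIH1 lost its call without any of 3 of the 6 samples in turn, and BST2 without any of 5. IFITM2, the IFITM gene found at a high level in HepG2 alone, rose from 28.1 ± 1.99 to 40.3 ± 3.65 CPM (SD, n = 3; log2 fold change 0.52, edgeR adjusted p = 0.000281). No transcription factor or OAS gene of the set was called by edgeR or DESeq2, and 0 of these 7 tested genes had an unadjusted p under 0.05.

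**Figure D4:**
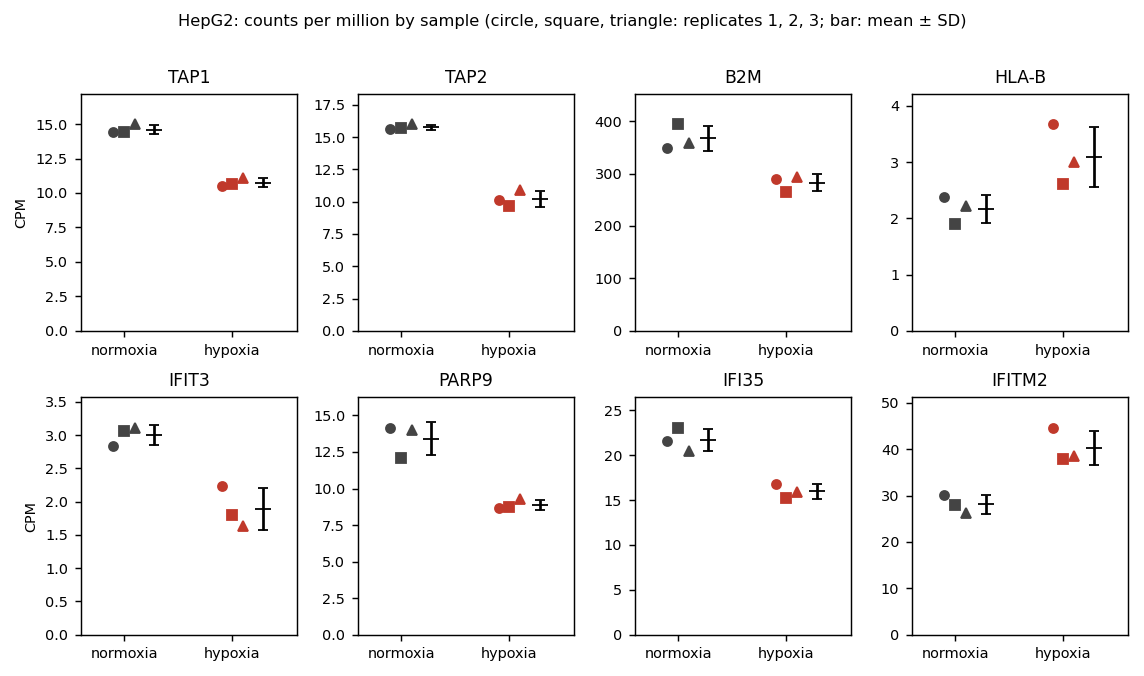
CPM in the 3 normoxic and 3 hypoxic HepG2 samples (points) with the mean and SD (bars), each axis starting at 0. TAP1, TAP2, B2M, IFIT3, PARP9 and IFI35 are lower in every hypoxic sample, and HLA-B and IFITM2 are higher.

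In HKC-8, ISG20 was the member that rose and IFIT5 the member that fell when replicate numbers were left out of the fit. ISG20 (chromosome 15, 89178901 to 89199714, GRCh37) was at 0.911, 0.665 and 1.28 CPM in normoxia and 3.36, 4.26 and 4.06 in hypoxia, a log2 fold change of 2.03 (SE 0.25, edgeR adjusted p = 0.00111). IFIT5 was at 36.0, 33.7 and 33.1 CPM and 26.2, 24.1 and 27.0, a log2 fold change of -0.41 (SE 0.09, edgeR adjusted p = 0.0135), a call lost without either sample numbered 1. Of 38 members 35 were tested, and 20.4% of 13536 genes were called (11.2% higher, 9.12% lower). IFITM1, IFI44L and HLA-F were too low to test, and the median log2 fold change was 0.02 against 0.0036 over all genes. All hypoxic samples lay above all normoxic samples for 2 members and below for 4, against 19.7% and 19.5% of all genes.

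The members varied more between samples than other genes did in all 3 lines, most of all in HKC-8. Over 28 members tested in HKC-8, outside MHC class I and peptide loading, the median SD of log2 CPM was 0.35 in normoxia and 0.27 in hypoxia. Over all genes tested it was 0.14 and 0.15. Over 27 such members in RCC4+VHL it was 0.094 and 0.099, against 0.067 in both conditions over all genes. Over 24 such members in HepG2 it was 0.15 and 0.13, against 0.12 and 0.084. The genes were not matched for level. In HKC-8 the samples numbered 3 were highest in both conditions for 16 of the 28 (57.1%), against 21.6% of all genes. DDX60 was at 4.41, 3.40 and 11.8 CPM in normoxia and 7.56, 8.20 and 21.3 in hypoxia. OASL was at 2.07, 2.41 and 7.60 and then 3.52, 5.11 and 12.3 CPM. IFI44 was at 0.731, 0.813 and 2.44 and then 1.28, 2.39 and 4.13 CPM. Samples with the number 3 were the high ones in each condition for these genes, and each hypoxic sample was above the normoxic sample of its own number. HLA-B had the opposite order, at 29.7, 16.2 and 8.42 CPM in normoxia and 32.9, 24.6 and 16.4 in hypoxia, and was highest in the samples numbered 1.

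HKC-8 samples of the same number deviated together over all genes, so the fit with the replicate block stands beside the one without it. With the block, 9 members rose and 6 fell, where 42.5% of genes were called and 21.6% were called lower. DDX60 (0.96, SE 0.12, edgeR adjusted p = 0.000146), IFI44 (1.03, SE 0.20, edgeR adjusted p = 0.0027), OASL (0.84, SE 0.12, edgeR adjusted p = 0.000479) and IFIT2 (0.82, SE 0.12, edgeR adjusted p = 0.00037) had the largest gains in log2 level beside ISG20 (2.06, SE 0.21). HLA-B (0.56), IFIT3 (0.39), DDX58 (0.38), the RIG-I sensor, and IRF1 (0.23) were the other members called higher. OAS1 (-0.76), IFIH1 (-0.58), IFIT5 (-0.41), NLRC5 (-0.35), IFI35 (-0.28) and IFITM3 (-0.27) were called lower. Without the block, leaving out normoxic replicate 3 raised the count of higher members from 1 to 6, which added DDX60, IFIT2, IFIT3, OASL and IFI44. Leaving out hypoxic replicate 2 or 3 raised the count of lower members from 1 to 2 or 3.

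**Figure D5:**
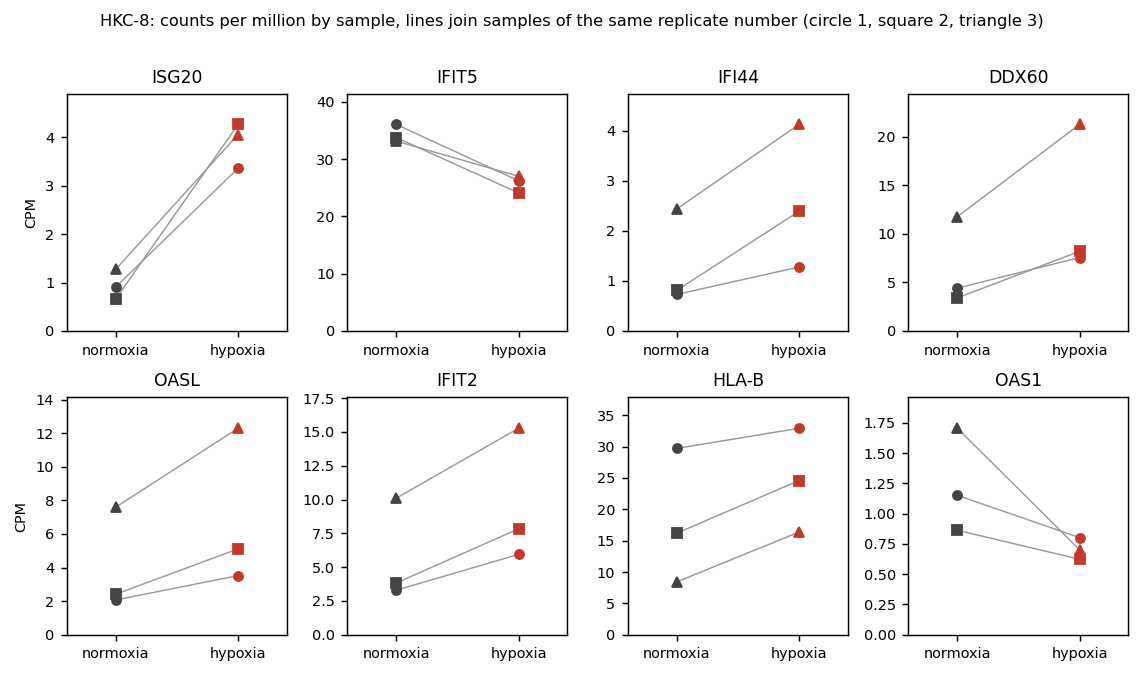
CPM of 8 members in the HKC-8 samples, each axis starting at 0, with a line from the normoxic to the hypoxic sample of the same replicate number. The lines for IFI44, DDX60, OASL, IFIT2 and HLA-B all rise from different starting levels, those for OAS1 and IFIT5 all fall, and ISG20 rises in all 3.

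HKC-8 and HepG2 share an annotated oxygen level and duration, so the difference between their responses was tested. Of 37 members tested, 3 had a lower response in HepG2 and 0 a higher one in edgeR (3 at an unadjusted p under 0.05, and 1 with DESeq2), where 9.30% of 15046 genes were called (4.28% lower, 5.02% higher). ISG20, which was at 5.08, 5.95 and 5.90 CPM in normoxic and 6.71, 6.38 and 7.78 in hypoxic HepG2, differed by -1.73 on the log2 scale (SE 0.28, edgeR adjusted p = 0.00104). B2M differed by -0.44 (SE 0.11, edgeR adjusted p = 0.0172) and TAP2, under the chromosome 6 limit, by -0.67 (SE 0.19, edgeR adjusted p = 0.0371). The TAP2 difference lost its call without any of 9 of the 12 samples in turn, and the B2M difference without hypoxic HepG2 replicate 2 (edgeR adjusted p = 0.0559). OAS1 lay just past the threshold (0.94, SE 0.28, edgeR adjusted p = 0.0503). With the replicate block 5 members were lower, where 20.1% of genes were called and 9.06% were called lower, with IFIT3 (-1.06) and PARP9 (-0.42) added, and OAS1 was higher (0.90, edgeR adjusted p = 0.00726). By its annotation RCC4+VHL had another oxygen level and duration, and its response was not tested against the others.

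Set side by side, IFI35 was called lower in RCC4+VHL (-0.68) and HepG2 (-0.44), as were BST2 (-0.40 and -0.23), IFIT3 (-0.36 and -0.67) and PARP9 (-0.23 and -0.59). HLA-B (0.61 and 0.51) and HLA-C (0.34 and 0.36) were called higher in both. B2M was called in opposite directions, at 0.18 in RCC4+VHL and -0.38 in HepG2. Of all genes, 50.1% were called in RCC4+VHL and 39.1% in HepG2. The share called the same way in both was not computed. In HepG2 the BST2 and HLA-B calls were each lost in 6 of 12 alternatives, the HLA-C call in 4 and the IFIT3 call in 1. The RCC4+VHL calls of HLA-B, B2M, BST2, IFIT3 and PARP9 were lost in 1 fit of all 18 samples.

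The rest of the pathway was read from lists of related genes. Among 11 receptors, JAK kinases and STATs, 5 rose and 2 fell in RCC4+VHL, 1 rose and 4 fell in HepG2, where 50.1% and 39.1% of all genes were called, and none was called by edgeR in HKC-8 without the block, where 5 had an unadjusted p under 0.05 and DESeq2 called 1. The receptor chain IFNAR1 rose in RCC4+VHL (0.46) and HepG2 (0.25). Of 7 negative regulators, 0 were called in HKC-8 by edgeR or DESeq2 (2 at an unadjusted p under 0.05), 3 fell in RCC4+VHL and 2 fell and 1 rose in HepG2, against the same shares of all genes. SOCS1, an inhibitor of JAK kinases, was at 0.711, 0.258 and 0.936 CPM in normoxic RCC4+VHL and 0.144, 0.180 and 0.248 in hypoxia (log2 fold change -1.70, SE 0.49, edgeR adjusted p = 0.0058).

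Of 11 adaptors and upstream sensors, 2 rose and 2 fell in HKC-8, 3 rose and 3 fell in RCC4+VHL and 3 rose and 1 fell in HepG2, where 20.4%, 50.1% and 39.1% of all genes were called. TMEM173 (STING), the adaptor of cytosolic DNA sensing, rose in all 3 lines, by a log2 fold change of 0.82 in HKC-8, 0.40 in RCC4+VHL and 0.71 in HepG2. IFI16, a DNA sensor, had a log2 fold change of -0.72 in HKC-8 and -0.35 in RCC4+VHL. TLR3 had -0.61 in RCC4+VHL and 1.66 in HepG2, where its samples overlapped.

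In a list of 37 other interferon-stimulated genes, 1 rose and 7 fell of 35 tested in HKC-8, 6 rose and 11 fell of 35 in RCC4+VHL and 6 rose and 10 fell of 34 in HepG2. The shares of all genes called were 20.4%, 50.1% and 39.1%. APOL1, a lipid-binding protein of innate immunity, was at 63.5 ± 3.95 CPM in normoxic and 200 ± 16.8 in hypoxic RCC4+VHL, and at 35.9 ± 2.86 and 232 ± 10.7 in HepG2 (SD, n = 3). Its log2 fold changes were 1.66 and 2.69, and those of the neighbouring APOL2 were 1.17 and 1.66. GBP1, an interferon-inducible GTPase, had -1.07 in RCC4+VHL and -0.83 in HepG2. MX2 rose in HKC-8 (2.81) from 0.0659 ± 0.0369 to 0.474 ± 0.0238 CPM (SD, n = 3).

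Among 17 other antigen processing genes, 1 rose and 2 fell of 14 tested in HKC-8, 3 rose and 4 fell of 13 in RCC4+VHL, and 1 rose and 6 fell of 15 in HepG2, beside 20.4%, 50.1% and 39.1% of all genes. PSME2, a subunit of the proteasome activator, had log2 fold changes of -0.52 in HKC-8, -0.30 in RCC4+VHL and -0.63 in HepG2. PSMB9, an immunoproteasome subunit, was at 2.63, 2.24 and 1.67 CPM in normoxic HepG2 and 0.952, 0.673 and 0.905 in hypoxia (log2 fold change -1.38, SE 0.25, edgeR adjusted p = 0.000683).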

How the data were processed

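PolyA RNA libraries of 18 samples were analysed as raw counts per gene. Per the labels and methods, the authors trimmed reads with Trim Galore 0.3.3, aligned them to GRCh37 with TopHat 2.0.8b and Bowtie 1.0.0, removed non-unique fragments with SAMtools 0.1.19 and deposited whole-number counts of fragments per gene from HTSeq 0.5.4p3, without normalization. Samples were grouped by line and oxygen from the titles. Here, genes were filtered by filterByExpr, scaled by TMM and tested by edgeR's quasi-likelihood test (edgeR 4.0.16, R 4.3.3) with Benjamini-Hochberg adjustment over all genes tested, called at adjusted p under 0.05. Each line was fitted apart for hypoxia. The 9 normoxic samples were fitted together between lines, and the 12 HKC-8 and HepG2 samples for the difference in response. SE is the absolute log2 fold change divided by the square root of F. Named were the called members, with every sample's value where the change was at least 1.5-fold (at most 8 a line), the 8 largest called differences between lines, and called list genes past 1.5-fold (at most 4 a list and line). Smaller changes of list genes, the rest of the per-sample values and the chromosome 6 genes were added after values were seen. The members and lists were chosen with earlier results of these data known.

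The results were recomputed with DESeq2 1.42.0, with median-of-ratios scaling, without the filter or with a minimum of 10 counts per sample, with the 18 samples fitted together, with the replicate block and without each replicate. Deviations of same-numbered normoxic and hypoxic samples correlated across genes with r of 0.18, 0.63 and 0.58 in HKC-8. The values were -0.0065, 0.02 and 0.03 in RCC4+VHL and 0.23, 0.05 and 0.23 in HepG2. The main fits, that of HKC-8 included, held no replicate block. For HKC-8 the blocked fit was given beside the main one. On simulated data the test recovered 90.9% of 198 changed genes in HKC-8 (13426 genes run) and 97.5% of 199 in RCC4+VHL (12751). In HepG2 it recovered 96.0% of 198 (13521). Of its calls in these lines, 5.76%, 8.92% and 3.06% were genes that had not been changed. For the difference in response it recovered 76.0% of 196 (14922), and 6.88% of its calls were unchanged genes. These shares hold for the size of change that was simulated, and the recovery of smaller changes was not tested. That size was larger than every hypoxic change of a member called in the main fits, except that of ISG20 in HKC-8. The shares therefore do not measure how well changes such as the others were found. Simulated samples were drawn independently, without the deviation that same-numbered HKC-8 samples shared. Replicates differed beyond sampling noise in every group (chi-square per degree of freedom 4.57 to 91.5). Intervals and limits cover counting error only.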

Additional observations from a re-analysis of the deposited data

Results flagged for a closer look

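The test of the difference between HKC-8 and HepG2 called ISG20, B2M and TAP2, 3 of 37 members tested, where 9.30% of all genes were called. The TAP2 call was lost without any of 9 samples in turn, and the B2M call without hypoxic HepG2 replicate 2. The HepG2 response minus the HKC-8 response was -1.73 on the log2 scale for ISG20, -0.44 for B2M and -0.67 for TAP2 (edgeR adjusted p = 0.00104, 0.0172 and 0.0371). TAP2 lies in the chromosome 6 stretch with few counts in HKC-8, and the part of that in its value was not tested.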

How the results depend on the processing

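In HKC-8, DESeq2 called 2 members lower, the replicate block 9 higher and 6 lower (2836 and 2919 genes), and 1 fit of all 18 samples 2 and 5 (2503 and 2510 genes). That fit called 2 members higher and 6 lower in RCC4+VHL (1867 and 1419 genes) and 3 lower in HepG2. The members outside the chromosome 6 stretch, an alternative chosen after seeing the data, left 1 called higher in HepG2 and 8 higher in HepG2 than in RCC4+VHL. For the difference in response, DESeq2, median-of-ratios scaling, no filter, at least 10 counts in every sample and the block each called 1 member higher, OAS1, and the block called 5 lower (1656 and 1363 genes). At least 10 counts in every sample left 5 members lower in RCC4+VHL than in HKC-8, and 10 and 5 higher in HepG2 than in HKC-8 and RCC4+VHL, with fewer members tested. Apart from that, the cause of these shifts was not tested.

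Leaving out 1 replicate gave 1 to 6 members higher and 0 to 3 lower in HKC-8 (687 to 1794 and 326 to 1489 genes), 1 to 2 higher and 6 to 8 lower in HepG2, 5 to 7 and 13 to 16 in RCC4+VHL, and 0 to 1 and 1 to 5 for the difference in response (481 to 932 and 430 to 1000 genes). In RCC4+VHL same-numbered samples deviated together no more than others (mean r 0.0166, against at most 0.0167 for another matching). In HepG2 they did so weakly (mean r 0.171, against at most 0.0819). The block added DDX58 to the members called lower in RCC4+VHL, which were then 15, and changed no member call in HepG2. Of the 165 single-member results called in at least 1 fit, 2 changed sign without 1 replicate, none past the threshold: TAPBP in hypoxic RCC4+VHL (0.17 without normoxic replicate 2, in a range down to -0.56), and IFIT1 in RCC4+VHL against HKC-8 (-0.09 and -0.22 without normoxic HKC-8 replicates 1 and 2, in a range up to 0.59). Of 85 member results called in no fit, 36 changed sign under an alternative. A count of 0 could not tell absence from a level under 0.0307 to 0.0776 CPM.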
